A study of Homo sapiens with 8 samples.

Results

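The comparison of open chromatin in cells given the CBP inhibitor PRI-724 with open chromatin in vehicle-treated cells rests on a pair of peak lists. The vehicle list held 61016 peaks and the CBPi list 47161, together 108177 of the 200358 peaks in the series. Vehicle peaks that shared 1 bp or more with a CBPi peak were counted as kept and the rest as lost. CBPi peaks that touched no vehicle peak were counted as gained. Peaks were also ranked by their deposited area within each list.

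The cells were NCI-H295R, an established line grown from a human adrenocortical carcinoma and a standard model of steroid-producing adrenal cells, known to carry an activating mutation of β-catenin. Vehicle cells received DMSO for 96 h, and CBPi cells received 26 µM PRI-724 for 96 h, a dose that the labels call an IC-50. The series also has cells given the EZH2 inhibitor EPZ-6438 (EZH2i, 62 µM, 96 h) and cells given forskolin (FSK, 10 µM) for 48 h after 48 h of vehicle. Each group had 2 libraries, described as biological replicates of this 1 line, but only 1 peak list. Values below therefore have no replicate error and no p-value. Read depth is unknown, and a peak can leave a list by falling just under the caller's threshold.

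CBP, encoded by CREBBP, is a histone acetyltransferase and coactivator that works with its paralog p300 (EP300) at promoters and enhancers. β-catenin (CTNNB1) carries the Wnt signal into the nucleus, where it binds TCF/LEF factors and recruits CBP or p300. PRI-724 is known as a blocker of the contact between CBP and β-catenin. ATAC-seq reports where the transposase Tn5 can insert adapters, so it reads DNA accessibility and neither acetylation nor transcription. As a check of the label, 10 of 15 adrenocortical marker genes had a vehicle peak within 1 kb of an annotated gene end, NR5A1, STAR, CYP11A1 and CYP17A1 among them. This is close to the share over all protein-coding genes, 13509 of 19974 (67.6%), so the count alone does not set these markers apart. Such a peak was present at 4 of 12 fibroblast, 3 of 12 endothelial, 2 of 14 immune and 6 of 12 chromaffin markers. The 5 adrenocortical markers with no such peak were CYP21A2, CYP11B1, HSD3B2, MRAP and SULT2A1.

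Start regions of some named genes are printed first, chosen after their values were seen. MC2R and CYP17A1 were taken for their role in the adrenal and the others for the size of the lost, gained or moved peak. Each line gives the 250 bases before a transcription start from the RefSeq promoter table (GRCh38.p14), 5′ to 3′ on the gene's strand, with CG dinucleotides in capitals. GNRHR (gonadotropin-releasing hormone receptor), MC2R (the ACTH receptor) and GALNTL6 (a glycosyltransferase family member) are shown because they had a start peak with vehicle and none with CBPi.
GNRHR (chr4:67754389-67754638, minus strand): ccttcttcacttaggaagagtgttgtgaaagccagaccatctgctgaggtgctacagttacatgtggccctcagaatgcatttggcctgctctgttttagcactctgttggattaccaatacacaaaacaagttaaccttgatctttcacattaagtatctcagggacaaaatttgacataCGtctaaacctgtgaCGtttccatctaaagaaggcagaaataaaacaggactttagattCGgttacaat
MC2R (chr18:13915708-13915957, minus strand): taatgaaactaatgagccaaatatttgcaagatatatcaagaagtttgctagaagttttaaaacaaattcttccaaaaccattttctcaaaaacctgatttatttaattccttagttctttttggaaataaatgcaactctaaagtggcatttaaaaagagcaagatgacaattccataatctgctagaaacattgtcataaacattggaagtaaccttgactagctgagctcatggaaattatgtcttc
GALNTL6 (chr4:171813154-171813403, plus strand): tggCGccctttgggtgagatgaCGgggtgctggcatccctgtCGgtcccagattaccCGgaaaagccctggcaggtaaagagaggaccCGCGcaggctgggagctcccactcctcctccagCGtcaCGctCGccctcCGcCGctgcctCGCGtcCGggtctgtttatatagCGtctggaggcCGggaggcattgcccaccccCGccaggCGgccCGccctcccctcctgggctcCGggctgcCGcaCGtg
The GNRHR stretch had 3 CG dinucleotides and a GC content of 40.4%. MC2R had 0 and 30.0%, and GALNTL6 had 22 and 69.6%, so the lost starts included both CG-poor and CG-rich sequence.

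MCAM (a cell adhesion molecule), PNMA8A (a member of the paraneoplastic antigen family) and C13orf46 are shown because they had a start peak with CBPi and none with vehicle.
MCAM (chr11:119317131-119317380, minus strand): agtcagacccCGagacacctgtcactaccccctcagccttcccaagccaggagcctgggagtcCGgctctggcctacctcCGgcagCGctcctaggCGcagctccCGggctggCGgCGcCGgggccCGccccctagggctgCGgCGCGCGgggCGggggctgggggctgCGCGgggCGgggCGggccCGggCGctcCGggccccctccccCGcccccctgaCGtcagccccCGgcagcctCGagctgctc
PNMA8A (chr19:46471564-46471813, minus strand): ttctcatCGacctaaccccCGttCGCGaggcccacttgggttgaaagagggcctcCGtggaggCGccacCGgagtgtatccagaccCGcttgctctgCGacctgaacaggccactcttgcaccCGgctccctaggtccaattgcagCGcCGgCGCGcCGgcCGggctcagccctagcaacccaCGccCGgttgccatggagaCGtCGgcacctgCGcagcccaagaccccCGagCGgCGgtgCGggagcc
C13orf46 (chr13:113974077-113974326, minus strand): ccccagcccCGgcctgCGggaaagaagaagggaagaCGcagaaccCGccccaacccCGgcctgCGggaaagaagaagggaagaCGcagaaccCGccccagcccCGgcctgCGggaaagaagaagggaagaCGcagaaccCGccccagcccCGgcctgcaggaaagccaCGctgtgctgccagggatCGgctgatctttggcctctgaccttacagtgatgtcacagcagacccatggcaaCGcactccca
These stretches were GC-rich, at 79.6%, 68.8% and 65.2%, with 26, 25 and 16 CG dinucleotides. That of MCAM held the letters of a cAMP response element, TGACGTCA, which 2.25% of all start windows held.

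CYP17A1, the 17α-hydroxylase/17,20-lyase of cortisol and androgen synthesis, and EPHA1, an ephrin receptor gene, are shown because their start peaks were in both lists but ranked lower by area with CBPi. NPC1L1, a sterol transporter gene, had the start peak with the largest rise in rank.
CYP17A1 (chr10:102837414-102837663, minus strand): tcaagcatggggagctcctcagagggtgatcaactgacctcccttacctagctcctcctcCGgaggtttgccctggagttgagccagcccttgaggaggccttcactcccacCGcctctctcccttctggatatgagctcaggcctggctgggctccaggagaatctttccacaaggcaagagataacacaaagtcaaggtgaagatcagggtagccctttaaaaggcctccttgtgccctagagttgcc
EPHA1 (chr7:143408857-143409106, minus strand): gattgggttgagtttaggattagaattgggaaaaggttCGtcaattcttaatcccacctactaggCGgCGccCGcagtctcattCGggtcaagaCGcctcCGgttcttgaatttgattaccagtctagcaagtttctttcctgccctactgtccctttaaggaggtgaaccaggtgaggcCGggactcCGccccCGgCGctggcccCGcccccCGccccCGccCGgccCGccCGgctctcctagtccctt
NPC1L1 (chr7:44541331-44541580, minus strand): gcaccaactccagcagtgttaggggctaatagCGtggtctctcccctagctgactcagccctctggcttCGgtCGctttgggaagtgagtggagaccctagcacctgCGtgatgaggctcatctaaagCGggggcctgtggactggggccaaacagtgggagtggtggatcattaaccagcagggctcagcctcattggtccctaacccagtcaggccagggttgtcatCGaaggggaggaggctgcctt
They held 2, 17 and 6 CG dinucleotides.

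With CBPi, 42343 of 61016 vehicle peaks were kept (69.4%, Wilson 95% interval 69.0 to 69.8) and 18673 were lost, a background of 30.6% of vehicle peaks. In the CBPi list 5067 of 47161 peaks were gained, a background of 10.7%. These intervals take each peak as independent and reflect counting error alone. The vehicle list covered 42.7 Mb with a median peak width of 539 bp, and the CBPi list 36.7 Mb with a median of 595 bp. The CBPi list was thus shorter, with a larger median peak width.

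Most lost peaks lay far from any CBPi peak. Only 1126 of the 18673 had a CBPi peak within 1 kb, 12783 were over 10 kb from one, and the median distance to the next CBPi peak was 22361 bp. Of the kept peaks, 40469 were covered over at least 50% of their length and 11 over less than 10%. A set of 40219 peaks paired 1 to 1 between the lists, with a median of 17 bp between summits. The CBPi peak was the wider of the pair at 16352 of them, so paired peaks were mostly not wider with CBPi. In addition, 576 vehicle peaks were covered by 2 or more CBPi peaks, and 790 CBPi peaks covered 2 or more vehicle peaks.

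The lost and the gained peaks were both the small ones. Lost peaks had a median width of 364 bp, against 673 bp for kept peaks, and a median area of 306.2 against 887.6. Gained peaks had a median width of 400 bp, against 635 bp for the other CBPi peaks, and a median area of 285.2 against 748.2. In the lowest decile of vehicle area 24.4% of peaks were kept, and in the highest 99.97%, where 2 of 6102 were lost. The gained share ran from 34.6% in the lowest decile of CBPi area to 0 of 4716 peaks in the highest. A total of 1663 lost peaks lay in the larger-area 50% of the vehicle list, and 243 gained peaks in that of the CBPi list. The sites of largest area were therefore in both lists.

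**Figure D1:**
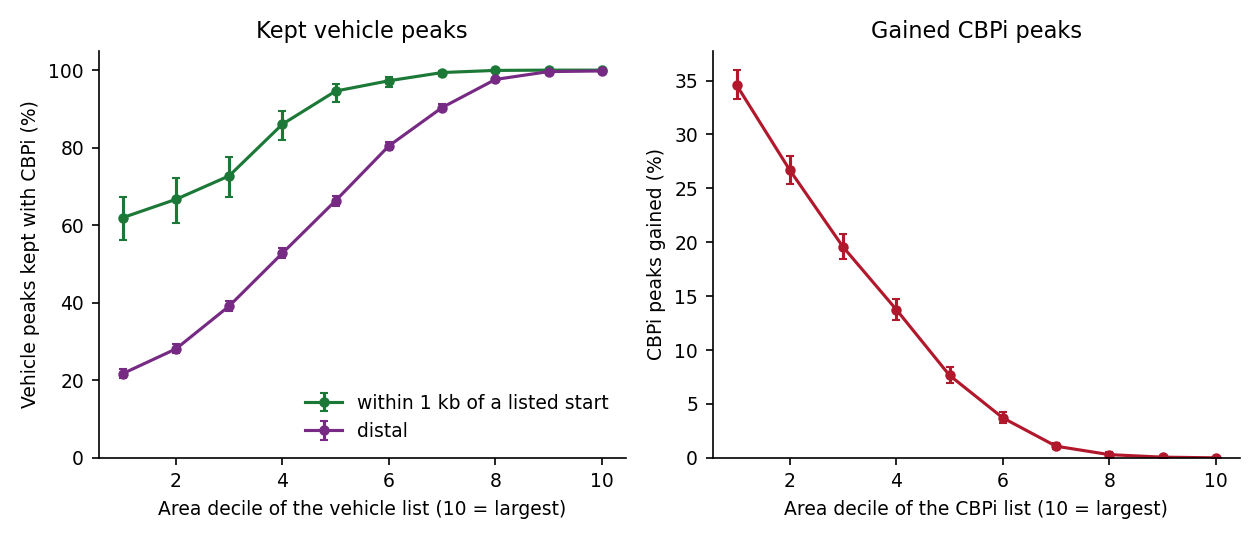
Left, the percentage of vehicle peaks kept with CBPi in each decile of vehicle area, for peaks within 1 kb of a listed transcription start and for distal peaks. Right, the percentage of CBPi peaks that were gained in each decile of CBPi area. Points are shares and bars are Wilson 95% intervals (counting error only). Among the smallest peaks 61.9% of start peaks and 21.7% of distal peaks were kept, and the gained share fell from 34.6% to 0.

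Peaks at transcription starts were kept far more often than distal peaks. Of 11629 vehicle peaks within 1 kb of a start listed in the RefSeq table, 11270 were kept (96.9%, 96.6 to 97.2). Of 3593 peaks at other annotated ends of protein-coding genes 89.8% were kept. The kept share was 62.9% of 21245 peaks inside genes and 59.0% of 24549 peaks outside them. Over all 45794 distal peaks it was 60.8%, which is 36.1 points (35.6 to 36.6) below the start peaks. Start peaks were also larger, and averaged over deciles of area the difference was 20.3 points. The difference at like area was 14.2 points with EZH2i and 6.32 points with FSK, given side by side because the 3 comparisons share the vehicle list.

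The gained share was lowest at listed starts, though gained shares by place were not compared at like area. Only 3.01% of CBPi peaks at listed starts were gained, against 7.14% at other gene ends, 15.5% inside genes and 12.3% outside them. Peaks inside genes made up 48.2% of all gained peaks and those outside genes 40.1%.

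Among the 40219 peaks shared 1 to 1, rank was expressed as a percentile among those same peaks, so that both lists had the same number. The percentile was lower with CBPi by 10 points or more at 7934 peaks, a background of 19.7%, and higher by as much at 7947, a background of 19.8%. Taken within the whole lists, which differ in length, the split was 14960 lower and 3331 higher. Peaks of very large area sit near the top of both scales and can move little.

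By place, start peaks moved up more often than down: 1376 rose by 10 points or more and 403 fell, of 10299. At other gene ends 635 rose and 244 fell of 3006. Peaks outside genes moved down, with 4195 falls and 2833 rises of 14134 and a median change of -2.05 points. Peaks inside genes were balanced, with 3092 falls and 3103 rises of 12780.

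**Figure D2:**
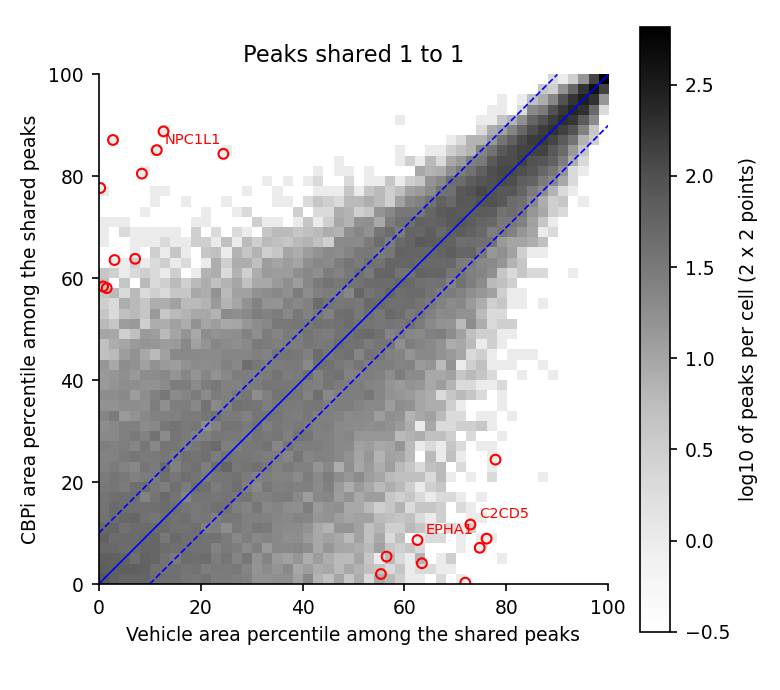
Percentile of area with vehicle (horizontal) and with CBPi (vertical) for the 40219 peaks shared 1 to 1. Shading is the log10 number of peaks in each cell of 2 by 2 points, the solid line marks equal rank, the dashed lines mark a change of 10 points, and red circles are the peaks named in the text for large falls and rises. Peaks of large area stay near the line, and the widest spread is among small peaks.

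The surroundings of distal peaks were described by gene content. Each distal peak was placed by the number of protein-coding genes within 500 kb on each side of its summit, in quintiles (5 groups of similar size) of the vehicle list. In the quintile with 0 to 2 genes 46.6% of 12438 distal peaks were kept. In the following quintiles, with 3 to 5, 6 to 8 and 9 to 14 genes, the kept share was 57.4%, 63.5% and 70.1%. In the quintile with 15 to 76 genes it was 80.1% of 6230. The kept share thus rose at every step with the number of genes nearby.

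The difference between the outer quintiles was 33.5 points (32.2 to 34.8), and 26.3 points when averaged over area deciles. With EZH2i the same 2 values were 13.9 and 9.49 points, and with FSK 2.31 and 0.027 points. Leaving out chromosomes 17, 19 and 22 gave 31.8 points for CBPi. The base composition of distal peaks was not measured here.

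Shared distal peaks showed the same order by rank. Their median change was -8.67 points in the quintile with fewest genes, where 2631 fell by 10 points or more and 669 rose. The median was -3.30, -1.29 and 0.98 points in the next quintiles. It was 6.22 points in the quintile with most genes, where 421 fell and 1801 rose. Start peaks followed the same order, with a median of -3.37 points in the quintile with fewest genes and 4.46 in that with most. The gained share rose as well, from 7.63% of CBPi peaks among the fewest genes to 13.9% among the most. With EZH2i the corresponding gained shares were 8.74% and 8.20%, and with FSK 21.7% and 12.5%.

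**Figure D3:**
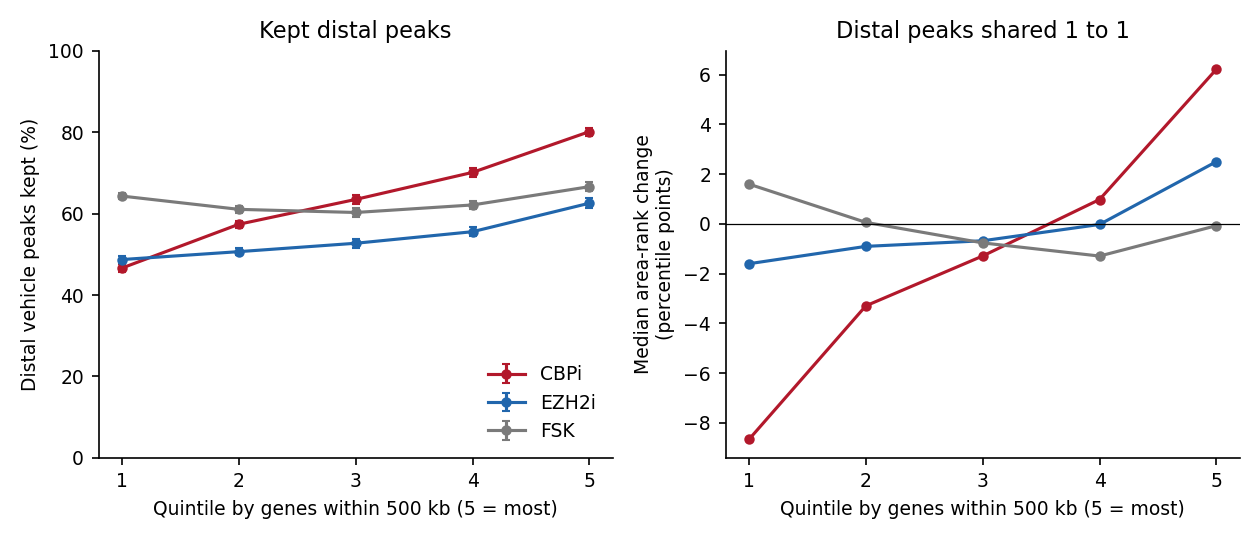
Left, the percentage of distal vehicle peaks kept with each treatment, by quintiles of the number of protein-coding genes within 500 kb (5 has the most), with Wilson 95% intervals that cover counting error only. Right, the median change in area percentile of distal peaks shared 1 to 1. With CBPi the kept share climbs from 46.6% to 80.1% and the median from -8.67 to 6.22 points, and all 3 treatments are drawn against the same vehicle list.

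The difference by distance to other peaks was smaller. Distal peaks with another vehicle peak within 12.5 kb were kept in 66.0% of cases and those without in 54.5%, a difference of 11.5 points (10.6 to 12.4).

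The chromosomes were ordered in the same way. Chromosomes 19 and 22 kept 84.3% and 83.4% of their distal vehicle peaks, and chromosome 17 kept 73.6%. The lowest shares were 51.7% on chromosome 4 and 52.3% on chromosome 18. The median rank change was 8.69 points on chromosome 19, 7.80 on 22 and 6.42 on 17, and -3.39 on chromosome 4 and -3.03 on 18. Chromosome 22 also had the largest gained share, 239 of 881 CBPi peaks (27.1%, 24.3 to 30.2). Chromosome 13 had a low kept share of 55.5% and yet a gained share of 14.2%.

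**Figure D4:**
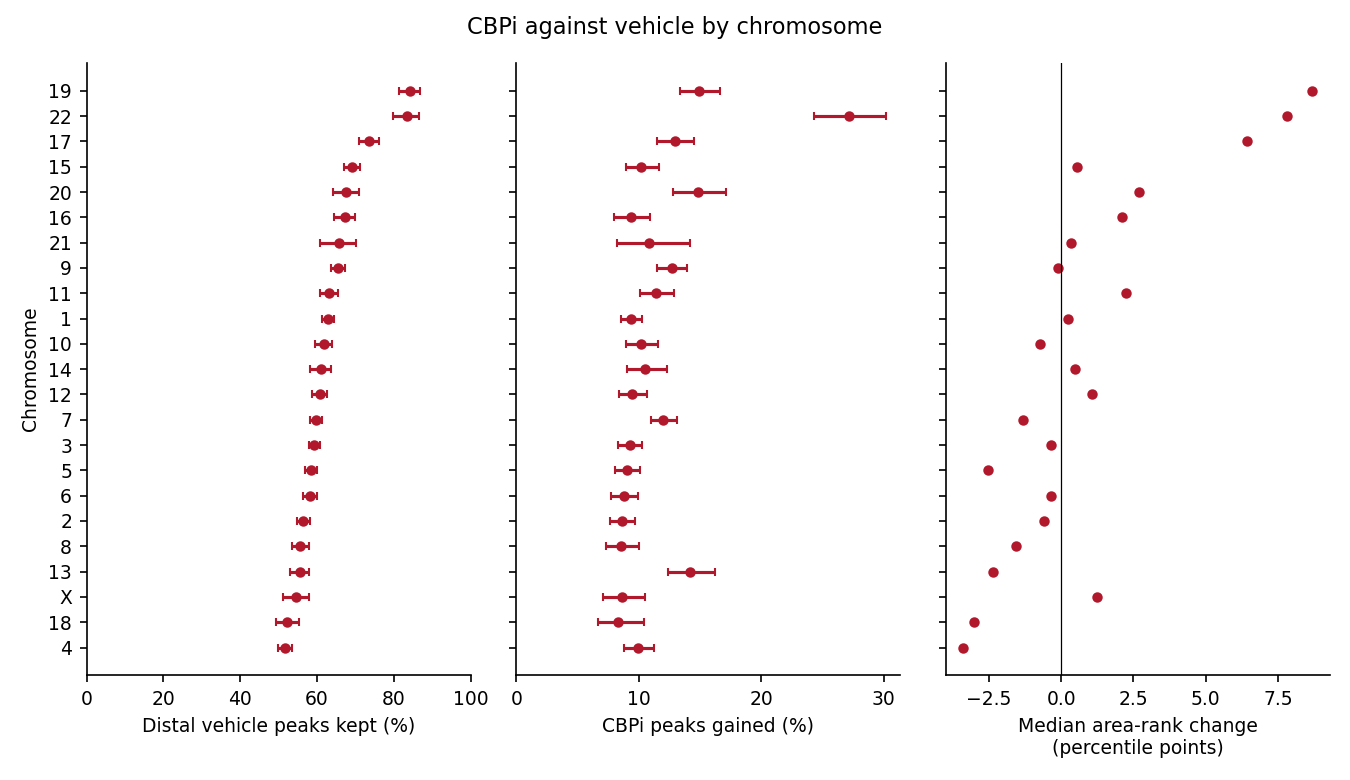
For each chromosome, the percentage of distal vehicle peaks kept with CBPi, the percentage of CBPi peaks gained, and the median change in area percentile of peaks shared 1 to 1. Bars are Wilson 95% intervals that cover counting error only, and chromosomes are ordered by the kept share. Chromosomes 19, 22 and 17 are highest for the kept share and for the rank change, and chromosome 22 stands at 27.1% gained.

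At the level of genes, few changed state at their ends, and a peak at either annotated end of a gene was counted. Of 13509 protein-coding genes with a vehicle peak within 1 kb of an annotated end, 318 had none with CBPi, a background of 2.35%. Of 6465 genes without one, 258 acquired one, a background of 3.99%. Counting only starts listed in the RefSeq table, 184 of 11205 genes lost the peak at every listed start (1.64%) and 180 of 4608 gained one (3.91%).

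The sequence at the listed starts differed with the state. Windows of 300 bases were taken, 250 before and 50 after each of 22035 starts. The 13567 windows with a peak in both lists had a median GC content of 66.7% and 27 CG dinucleotides. The 284 windows with a vehicle peak only had 53.3% and 9, close to the 52.3% and 5 of the 7869 windows with a peak in neither list. The 315 windows with a CBPi peak only had 64.3% and 17, and all windows together 62.3% and 21. Windows that lost the peak thus had a lower median GC content than all windows. Those that gained one had a median near that of all windows, and above that of the windows that had a peak in neither list.

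Windows with a vehicle peak were then ordered by GC content. In the lowest quintile 93.6% had a CBPi peak, and in the other quintiles 98.6% to 99.4%. The lowest quintile was also the lowest with EZH2i, at 89.3% against 97.1% to 98.3%, and with FSK, at 88.7% against 96.6% to 97.5%. Of windows without a vehicle peak, the share that gained one with CBPi rose from 1.88% in the lowest GC quintile to 15.8% in the highest. Gene content kept its order within every GC quintile. The median rank change of start peaks was -2.48 points with fewest genes nearby and 7.33 with most in the lowest GC quintile, and -0.77 and 5.59 in the highest.

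Short sequence motifs were searched in these windows on both strands, as a description of letters and not of binding. The SP/KLF box GGGCGG was present in 56.3% of all windows, in 73.9% of windows with a peak in both lists, in 34.9% of lost and in 57.8% of gained ones. The TATA box TATAAA was present in 9.49% of all windows, in 4.78% of those in both lists, 15.5% of lost and 8.57% of gained ones. The ETS motif CCGGAAG was in 12.8% of all windows, 18.2% of those in both lists, 4.93% of lost and 9.52% of gained ones. The SF1 motif CAAGGNCA, named for the adrenal nuclear receptor encoded by NR5A1, was in 4.44% of all windows, 3.23% of those in both lists, and 7.39% of lost and 7.62% of gained ones. The TCF/LEF motif ATCAAAG was in 2.00% of all windows, in 2 of 284 lost and in 4 of 315 gained ones. The SP/KLF and ETS letters were thus less frequent and the TATA letters more frequent in lost windows, which also had the lower median GC content. Whether GC content accounts for these shares was not tested.

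The genes that lost the gene-end peaks of largest area were FABP5, CLRN2, GALNTL6, GRIA3, GNRHR and POU2AF1. At FABP5, which encodes a fatty acid binding protein, the lost peak lay at chr8:81280397-81281658 (hg38), with 29.1% of vehicle peaks larger by area. The GNRHR peak whose start is printed above lay at chr4:67753822-67754670, and 37.8% of vehicle peaks were larger. All 5 vehicle peaks assigned to GNRHR were lost, with 2.31 expected from their areas. The peaks of GALNTL6 and FABP5 were in the EZH2i and FSK lists, while those of CLRN2, GRIA3, GNRHR and POU2AF1 were in the FSK list and not in the EZH2i list.

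The genes that gained the gene-end peaks of largest area were MCAM, BEST1, PGPEP1, C13orf46, FAM171A1 and PNMA8A. The MCAM peak was larger than all but 30.0% of the CBPi list, and the PNMA8A peak than all but 43.6%. C13orf46 had 12 gained peaks among its 17 in the CBPi list, and all 6 of its vehicle peaks were kept.

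Rank changes at gene ends reached further. The C2CD5 peak at chr12:22542225-22543249 went from percentile 72.9 to 11.7, and its CBPi peak was 441 bp wide against 1025 bp with vehicle. The EPHA1 peak, over the start printed above, went from 62.6 to 8.64 and from 1391 to 399 bp. ADAMTS12, an extracellular protease gene, went from 63.4 to 4.09. LMBRD1, SPRR2F and KIAA1328 fell by 53.4, 53.4 and 51.1 points. All 6 of these peaks were narrower with CBPi than with vehicle. Against the same vehicle list, the C2CD5, KIAA1328, LMBRD1, EPHA1 and ADAMTS12 peaks also fell with EZH2i. Their changes there were -53.7, -47.1, -42.9, -37.2 and -24.4 points. With FSK the ADAMTS12, SPRR2F, KIAA1328 and C2CD5 peaks changed by -29.6, -17.8, -14.3 and -9.22 points, and the EPHA1 peak by 11.5. No rank change was available for SPRR2F with EZH2i or for LMBRD1 with FSK.

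The largest rise at a gene end was at NPC1L1, from percentile 11.4 to 85.2. There the vehicle peak of 917 bp became a CBPi peak of 4576 bp, so the rise in area came with a broader peak. The same peak rose by 88.2 points with EZH2i and 77.1 with FSK. ACHE, the acetylcholinesterase gene, went from 3.11 to 63.6 and from 486 to 1423 bp. VAT1 and BARX1 rose by 57.5 and 56.5 points, and TMEM255B by 59.96. A peak inside RPL36, 176 bp from an end of LONP1, the mitochondrial protease gene, rose by 56.7 points. All 6 of these peaks were wider with CBPi. The ACHE, VAT1, BARX1 and LONP1 peaks also rose with EZH2i, by 39.1, 30.1, 50.3 and 22.1 points. With FSK the same peaks rose by 9.55, 27.5, 37.4 and 6.39 points.

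Large falls of distal peaks lay inside ATAD2B (71.9 to 0.28) and at 2 sites over 100 kb from any protein-coding gene end, chr5:39691310-39692277 (74.8 to 7.12) and chr2:41728296-41729593 (76.1 to 8.91). The largest rises were inside CAMK2B (2.80 to 87.1), MAMDC4 (0.30 to 77.7) and PTPRN2 (12.7 to 88.8) and 45075 bp from COL4A1 (8.48 to 80.5). The CAMK2B peak was 754 bp with vehicle and 4645 bp with CBPi. Against the same vehicle list, the CAMK2B peak rose by 88.3 points with EZH2i and the MAMDC4 peak by 85.8 with FSK. The PTPRN2 and COL4A1 peaks rose by 25.1 and 35.5 points with EZH2i and by 44.5 and 61.6 with FSK. The peaks in ATAD2B and on chromosome 5 also fell with both, and that on chromosome 2 with EZH2i only.

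Gene lists were read against all peaks whose summit lay within 100 kb of a protein-coding gene end, of which 35492 of 46950 were kept (75.6%). In that background the shared peaks had a median rank change of 0.69 points, with 5214 falls and 6951 rises of 33518. An expected kept share was taken from vehicle peaks of the same area decile, and a second from peaks of the same decile and gene-content quintile. All assigned peaks themselves exceeded the first of these, at 75.6% kept against 71.65% expected by area. A list above its area expectation can therefore still be no higher than assigned peaks in general. Lists and members were chosen with earlier results of these data known.

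Wnt targets and feedback genes kept 115 of 136 vehicle peaks (84.6%, 77.6 to 89.7), against 70.2% expected by area and 70.0% by area and gene content. All 19 gene-end peaks present with vehicle remained and 2 were added, at NOTUM and BMP4. Of 101 shared peaks 31 rose by 10 points or more and 9 fell. The excess over all assigned peaks was 8.96 points, and fell to 3.06 with genes within 20 kb and to 4.21 with peaks in the gene body and 1 kb around it. The same peaks were kept in 67.7% of cases with EZH2i and 55.2% with FSK, where all assigned peaks stood at 66.2% and 71.8%.

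AXIN2, the scaffold of the β-catenin destruction complex and a standard Wnt target, kept 6 of 7 peaks. Its gene-end peak at chr17:65559793-65562116 went from percentile 92.0 to 95.6. A peak at chr17:65588237-65588784 went from 37.3 to 58.4, and another at chr17:65515917-65516555 from 49.4 to 69.4. All 6 shared peaks of AXIN2 therefore ranked higher with CBPi, with a median change of 6.32 points. This was near the median of 6.42 over all 1492 shared peaks of chromosome 17, where 556 rose by 10 points or more and 92 fell. NKD1, an inhibitor of Dishevelled, kept 10 of 12 peaks and gained 2, and its peak at chr16:50645840-50646614 went from 10.5 to 40.1. ZNRF3, a ubiquitin ligase that removes Frizzled receptors, kept 12 of 14. Its 2 lost peaks were small, with 80.4% and 97.1% of vehicle peaks larger.

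NOTUM, which encodes a secreted Wnt deacylase, had no gene-end peak with vehicle and a gained peak at chr17:81961047-81961549 with CBPi, 207 bp from an annotated end. Its other peaks went from 20.05 to 57.5 and from 46.9 to 67.0. The first of these, with a vehicle summit 1375 bp from an annotated end, lay outside the 1 kb window with vehicle. Its CBPi counterpart, chr17:81959502-81960703, reached into that window. LEF1 kept the large peak at its start (0.84% of vehicle peaks larger) and lost 2 smaller peaks inside the gene. LGR5, the R-spondin receptor and a Wnt target in stem cells, kept 7 of 10 peaks, and its 3 losses compare with 4.35 expected from area. Its shared peaks went down in rank, with a median change of -7.87 points. One at chr12:71552741-71553599 went from 64.3 to 30.3. ISM1 kept 4 of 4 with a median change of -21.6 points. The list thus held members moving in both directions.

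The genes for β-catenin itself and the coactivators kept 83 of 107 peaks (77.6%, 72.7% expected by area) and all 22 gene-end peaks. CTNNB1 kept 3 of 3, including the peak over its start (5.82% of vehicle peaks larger). CREBBP, the gene of the drug's target, kept both start peaks, which went from 53.5 to 59.8 and from 57.8 to 63.1, and lost 1 of 4 peaks. EP300 kept both of its peaks. Among the others, SMARCA4, the chromatin remodelling ATPase, had a median rise of 17.7 points and MED12, a Mediator subunit gene, of 13.8.

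Genes described as CBP/β-catenin targets or survival genes kept 41 of 53 peaks (77.4%), where 73.8% was expected by area and 78.1% by area and gene content. BIRC5, which encodes survivin, kept its single peak, from percentile 41.6 to 37.3. CCND1, the cyclin D1 gene, and MYC are given here but belong to the Wnt list above. CCND1 kept 3 of 4 peaks, and the one at an annotated end, chr11:69641030-69641417, went from 12.4 to 40.5. MYC kept 11 of 12 peaks, the largest of which stayed at percentile 99.97 and 99.96. No member of the list of CBP/β-catenin targets and survival genes lost a gene-end peak. The excess of that list's kept share over all assigned peaks, 1.76 points, turned to -8.26 with genes within 20 kb and to -6.64 in the gene body.

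Steroidogenic genes kept 64 of 81 peaks (79.0%, 68.9 to 86.5), against 72.8% expected by area and 79.4% by area and gene content. All 11 gene-end peaks were kept, and 14 of 60 shared peaks rose and 4 fell. STAR, which moves cholesterol into the mitochondrion, kept 5 of 6 peaks, and the one at an annotated end went from 65.0 to 61.6. CYP11A1, the side-chain cleavage enzyme, kept 6 of 6, and a peak inside the gene went from 57.6 to 73.0. The CYP17A1 start peak, at the sequence printed above, went from 60.8 to 36.5. SCARB1, the HDL receptor gene, kept 15 of 23 peaks. HSD3B2, the 3β-hydroxysteroid dehydrogenase gene, lost 1 of 2 assigned peaks and gained 1, all at least 8993 bp from its ends. The only peak assigned to CYP21A2, the 21-hydroxylase gene, was kept and went from 32.9 to 29.2. It lay 6739 bp from the nearest end of CYP21A2, inside another gene, and neither gene had a gene-end peak in either list. CYP21A2 has a near-identical pseudogene, so reads there are uncertain.

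Adrenal regulators kept 114 of 154 peaks (74.0%, 76.1% expected by area). Their difference from all assigned peaks, -1.57 points, turned to 4.59 in the gene body. MC2R lost both of its vehicle peaks, chr18:13915388-13915749 and chr18:13915978-13916417. These were small, with 96.3% and 73.9% of vehicle peaks larger, and 1.34 losses were expected from their area. Both were also absent with EZH2i and present with FSK. NR5A1, the master regulator SF1, kept 3 of 3, and its start peak went from 91.1 to 94.0. NR0B1, which encodes the SF1 corepressor DAX1, kept 2 of 2. GATA6 kept 2 of 2 and gained 1. MC2R was the only one of the 24 list members with a vehicle gene-end peak that lost it.

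The genes of the cAMP and immediate early response kept 87 of 107 peaks (81.3%), with 22 rises and 5 falls of 72 shared peaks. The excess of this list, 5.71 points, turned to -0.44 in the gene body. SGK1 and PDE4D lost a gene-end peak. Polycomb and chromatin regulators kept 73 of 93 with 25 rises and 7 falls of 70, and EZH2, the Polycomb methyltransferase gene, kept its start peak from 98.7 to 98.0. Genes of the stress and unfolded protein response gained most: 14 of 57 CBPi peaks were gained (24.6%, 15.2 to 37.1), against 10.9% in the background. Their shared peaks rose in 17 of 43 cases and fell in 3, with a median of 6.49 points, against 2.08 expected from gene content. HSPA1A, the HSP70 gene, gained a start peak, though it has a near-identical neighbour, HSPA1B, and reads there are uncertain. That peak was small, with 84.2% of CBPi peaks larger.

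Cell cycle genes kept 68 of 77 peaks (88.3%, 79.4% expected by area and 81.2% by area and gene content) and all 29 gene-end peaks. MKI67, the proliferation marker, kept 5 of 6 with a median change of -13.3 points. Housekeeping genes kept 60 of 66 (90.9%) and all 24 gene-end peaks, against 76.9% expected by area and 81.6% by area and gene content. Cholesterol supply genes kept 70 of 86. Developmental transcription factor genes kept 100 of 131 (76.3%). HOXD10 lost its only peak and EVX1 gained a start peak. Both were small, with 84.7% of vehicle peaks and 94.0% of CBPi peaks larger, and the HOXD10 peak was also absent with EZH2i and FSK.

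The IGF and imprinted genes kept 90 of 138 peaks (65.2%), near the 66.0% expected by area. IGF2, whose product is a growth factor overproduced in adrenocortical carcinoma, kept its single peak, which went from percentile 69.6 to 41.5. KCNQ1 lost all 3.

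Neuronal adhesion genes and other very long genes stood lowest. They kept 76 of 144 peaks (52.8%, 44.7 to 60.8), against 66.9% expected by area and 56.2% by area and gene content. Of 76 shared peaks 45 fell by 10 points or more and 1 rose, with a median of -14.0 points, against -6.41 expected from gene content. Only 1 of 77 CBPi peaks was gained. With EZH2i 52.8% of these peaks were kept, and with FSK 70.1%, against 66.2% and 71.8% of all assigned peaks. DCC, the netrin receptor gene, kept 3 of 6 with a median change of -30.1 points, and NRXN3 and DPP10 lost a gene-end peak. These genes have few others around them, with a median of 1 within 500 kb of a peak.

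**Figure D5:**
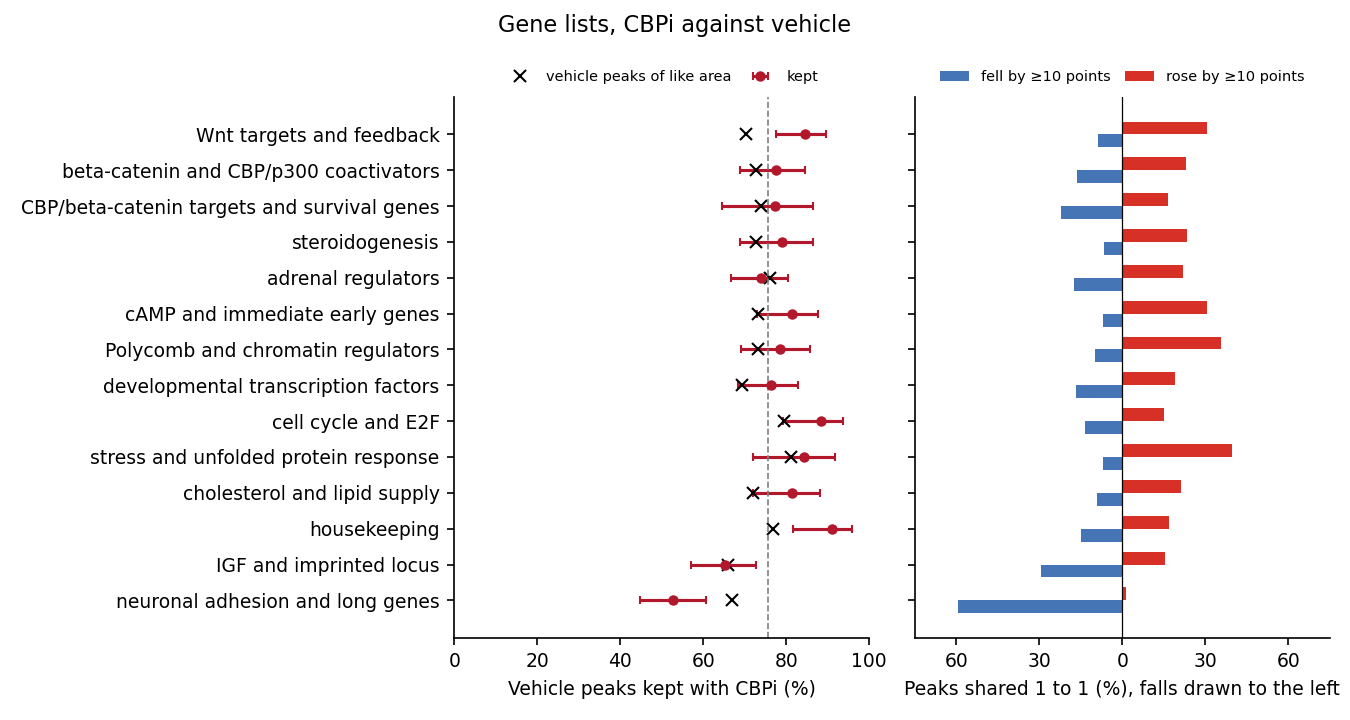
Left, the percentage of vehicle peaks kept with CBPi for 14 gene lists, with Wilson 95% intervals (counting error only), beside the percentage kept among vehicle peaks of like area (crosses) and the value for all assigned peaks (dashed line, 75.6%). Right, the percentage of shared peaks whose area percentile fell (left) or rose (right) by 10 points or more. Neuronal adhesion genes are lowest at 52.8% kept with 45 falls and 1 rise, and Wnt targets stand at 84.6% with 9 falls and 31 rises.

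Among markers of other cell types, fibroblast markers kept 18 of 25 peaks, endothelial markers 21 of 30, immune markers 31 of 47 and chromaffin markers 16 of 26, against 46 of 59 for adrenocortical markers. The first 4 shares, 72.0%, 70.0%, 66.0% and 61.5%, lay below the 75.6% of all assigned peaks. Vehicle peaks of like area were kept in 57.5%, 59.9%, 62.3% and 73.6% of cases, so against that measure only the chromaffin share was the lower one. All assigned peaks were also above that measure, at 75.6% against 71.65%, so the immune share does not stand out. The part of other cell types in the results above was not tested. Immune markers CD3E and CD68 gained a gene-end peak, and the endothelial marker ESAM lost one. The CD3E and ESAM peaks were small, with 92.3% of CBPi peaks and 87.0% of vehicle peaks larger. No gene-end peak was present in either list at 8 of 12 fibroblast, 9 of 12 endothelial, 10 of 14 immune and 6 of 12 chromaffin markers, among them COL1A2, DCN, PECAM1, VWF, PTPRC, TH and PNMT.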

How the data were processed

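The data are 4 peak lists from ATAC-seq of NCI-H295R cells, 1 for each group of 2 libraries, on hg38. Per the submitters' processing notes the tools were Bowtie2, Genrich and deepTools 2.0, with no role stated. The way 2 libraries became 1 list, the read filters, any Tn5 shift and the calling threshold: not given in the sources used here. The deposited signal is the authors' area of significance under each peak, at least 200.0 in every list, and was used only to rank or bin peaks within a list. The deposited score was not compared between lists, and equalled 1000 times area over width, capped, within 1 for all peaks. The deposited −log10 p of the summit ran from 2.72 to 15.9 in the vehicle list. Depth is unknown.

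Gene ends came from a RefSeq table (GRCh38.p14) with 19974 protein-coding genes, and starts from a promoter table with 22035 distinct starts of 15813 of them. A peak within 1 kb of a start or end was a start or gene-end peak, and others were distal. Overlaps needed 1 bp. Peaks were assigned to the nearest gene end within 100 kb. Of 397 listed genes 394 matched. Genes were named by a rule: a set of Wnt, coactivator and adrenal genes, the 6 lost and 6 gained gene-end peaks of largest area, the 6 gene-end and 4 distal peaks with the largest falls and rises, and up to 3 members of each list. Some genes that the rule selects are not reported here. Genes named beyond it were chosen after their values were seen. The members, lists and rule were chosen with earlier results of these data known. Python 3.11.15, numpy 2.4.6, pandas 2.3.3 and scipy 1.17.1 were used. The scripts were tested on simulated lists. Alternatives changed the overlap, window, list length and ranking.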

Additional observations from a re-analysis of the deposited data

How the results depend on the processing

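No paired analysis was possible because each group is 1 peak list and the labels carry no replicate numbers, and no replicate could be left out for the same reason. The kept share of vehicle peaks was 66.3% when 50% of a peak had to be covered, 63.1% with 50% of both peaks, 81.3% with both lists shortened to equal length, 94.6% in the larger-area 50% of the vehicle list and 71.9% with the larger-area 50% of both. The gained share under those settings was 12.6%, 18.4%, 18.5%, 1.03% and 7.42%, and 10.4% without chromosome 22. The difference between start and distal peaks was 34.7 points with a 2 kb window, 20.3 over area deciles, 39.0 with 50% covered and 24.5 at equal length. Falls in rank numbered 14960 and rises 3331 by rank in the whole lists, and 3528 and 3362 at 20 points. The gene-content difference was 31.7 points for genes within 250 kb, 26.3 over area deciles, 30.1 at equal length and 31.8 without chromosomes 17, 19 and 22. The difference by distance to a neighbour was 10.5 points at 5 kb and 16.7 at 50 kb. At equal length 156 genes lost and 487 gained a gene-end peak, so the balance of lost and gained genes turned, since the shortened vehicle list holds fewer small peaks. The kept share of the IGF list less that expected turned to 0.13 points when area and gene content were both matched. For 10 of 19 lists the difference in kept share changed sign in at least 1 alternative, in 22 of 95 alternatives in all, and so did the median rank change of 3 lists. Against all assigned peaks and then against area, the difference went from -9.64 to 3.66 points for immune, -5.60 to 10.1 for endothelial and -3.60 to 14.5 for fibroblast markers. The endothelial median went from 3.70 to -3.01 points with genes within 20 kb. None of the 45 alternatives to the main comparisons changed a sign, but most were shares or counts, which cannot turn negative. Only the differences between classes of peaks could have turned. Of these 45, 18 moved a value by less than its counting interval or 1.5 times, and 27 moved it further. The gene-content alternatives, those matching lists on gene content, and the one without chromosome 22 were chosen after seeing the data. The cause of these shifts was not tested, and depth, which is unknown, limits every count.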

Other observations

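Starts of long non-coding RNA genes were counted separately. Among 9079 such genes with a listed start over 1 kb from protein-coding gene ends, 1623 had a vehicle peak at a start and 258 of these had none with CBPi (15.9%, Wilson 95% interval 14.2 to 17.8). Of the 7456 without one, 125 gained one (1.68%). Of protein-coding genes 1.64% lost and 3.91% gained a peak at a listed start, and 60.8% of all distal vehicle peaks were kept. LINC02360 on chromosome 4 lost a start peak with 35.1% of vehicle peaks larger. SWINGN on chromosome 13 gained one with 22.2% of CBPi peaks larger. The areas of these peaks were not matched with those at protein-coding starts.

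Lost peaks in succession were listed as runs, described here after their values were seen. With CBPi 30.6% of all vehicle peaks were lost, and only 46.6% of distal peaks in the quintile with fewest genes were kept. Shares of this size give some runs of lost peaks without any clustering. Whether the runs of lost or gained peaks below were longer than the loss and gain shares alone would give was not tested. The longest run was 15 vehicle peaks in succession, all lost, over 290.5 kb at chr14:86057126-86347664, with no protein-coding gene end assigned to them. EZH2i kept 3 of them and FSK kept 6. A run of 14 lost peaks covered 1181 kb on chromosome 6 near EPHA7, an ephrin receptor gene, and a run of 12 lay near NR2F2 on chromosome 15. The longest run of gained peaks was 9 over 46.7 kb at chr22:22887506-22934167 near IGLL5, and runs of 8 lay at C13orf46 on chromosome 13 and at KLHL22 and SCARF2 on chromosome 22.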
